A study of Mus musculus with 5 samples.

Results

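Ear1, Ear2, Ear6 and Ear10 are 4 of the 28693 features counted in the scRNA-seq libraries, and were taken by gene symbol. They were chosen with their high levels in alveolar macrophages (AMs) of these same libraries already known, so their levels by cell type and by library are given here as a description and were not tested. They encode eosinophil-associated ribonucleases, small secreted enzymes of the RNase A superfamily. The family is named after the granules of eosinophils, where related proteins contribute to host defence, and it has expanded by gene duplication in rodents. In the mouse lung, several members are also transcribed by AMs, the resident macrophages of the airspace, which clear surfactant and depend on GM-CSF, TGF-β and the transcription factor PPARG for their identity.

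The cells came from lungs of adult Ms4a3-CreER;R26-tdT mice of both sexes on a mixed C57BL6/129 background, starting from 7 weeks of age. Every group carried the same alleles, in which a tamoxifen-inducible Cre expressed from Ms4a3, a gene of granulocyte–monocyte progenitors, switches on the tdT reporter. All mice received tamoxifen by gavage, and then either PBS or bleomycin, a drug that injures the alveolar epithelium and is followed by fibrosis, through the trachea. Immune cells were profiled with the 10X Genomics 3′ kit in 5 libraries, 1 after PBS and 4 after bleomycin (days 3, 7, 14 and 28). The number of mice pooled into a library is not given in the sources used here, so there are no replicates of a day, and an interval given with a level or a share covers counting error only.

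The members lie on chromosome 14 (GRCm38, GENCODE vM21). Ear1 (ENSMUSG00000072601, chr14:43818765-43875517, minus strand), Ear10 (ENSMUSG00000090166, chr14:43922720-43923559, minus strand) and Ear2 (ENSMUSG00000072596, chr14:44102654-44103534, plus strand) are neighbours, with 47203 bases between Ear1 and Ear10 and 179095 bases between Ear10 and Ear2. Ear6 (ENSMUSG00000062148, chr14:51853699-51854643, plus strand) lies 7750165 bases beyond Ear2. Among the transcripts, Ear1 and Ear2 share 96.1% of bases, and 98.7% over the last 300 bases, where a 3′ library takes its reads. Ear1 and Ear10 share 88.0%, whereas Ear1 and Ear6 share 63.2%. Of the 90-base words in the last 300 bases, 24.6% of those of Ear1, 1.90% of those of Ear2 and 22.3% of those of Ear10 also occur in another gene, and of those in the whole transcript 30.0%, 15.9% and 28.2%, in each case in these genes or in Ear pseudogenes. Counts of Ear1, Ear2 and Ear10 are therefore uncertain where a read fits more than 1 of them, and no such word was found for Ear6.

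The 4 genes also resemble each other upstream of their start sites. The following RefSeq sequences (GRCm38.p6) are shown because they hold the longest stretch that the 4 upstream windows have in common, 57 bases printed in capitals. Each runs 5′ to 3′ on the strand of the gene, from base 180 to base 71 before the RefSeq start, which is base 43819639 for Ear1, 44102654 for Ear2, 43923596 for Ear10 and 51853768 for Ear6. These starts are not all those of the GENCODE spans given above: the Ear1 span begins 55878 bases further upstream, so that its window lies inside the span but in no annotated exon, the Ear6 span begins 69 bases further upstream, the Ear10 span begins 37 bases further downstream, and Ear2 starts at the same base. The windows are at chr14:43819710-43819819 for Ear1, chr14:44102474-44102583 for Ear2, chr14:43923667-43923776 for Ear10 and chr14:51853588-51853697 for Ear6.
Ear1: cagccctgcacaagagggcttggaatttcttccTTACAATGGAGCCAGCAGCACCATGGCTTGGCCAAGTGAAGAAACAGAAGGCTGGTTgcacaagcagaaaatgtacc
Ear2: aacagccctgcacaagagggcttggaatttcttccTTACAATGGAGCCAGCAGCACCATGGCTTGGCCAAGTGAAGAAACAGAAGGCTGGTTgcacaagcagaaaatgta
Ear10: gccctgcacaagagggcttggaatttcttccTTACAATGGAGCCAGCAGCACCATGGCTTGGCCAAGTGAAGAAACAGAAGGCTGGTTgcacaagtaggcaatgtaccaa
Ear6: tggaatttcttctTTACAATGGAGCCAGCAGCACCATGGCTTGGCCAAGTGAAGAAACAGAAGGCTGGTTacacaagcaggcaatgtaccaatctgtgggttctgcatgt

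The stretch begins 147 bases before the RefSeq start of Ear1, 145 before Ear2, 149 before Ear10 and 167 before Ear6. It occurred in 4 of 32817 mouse promoters of the same 300-base length (0.0122%), which were those of the 4 members. Short motifs were searched on both strands of these promoters. CCAAT was present in all 4, and in 37.4% of all promoters. The C/EBP motif TTGCNNAA and the TATA-like motif TTAAAA were found in Ear1, Ear2 and Ear10, against 10.8% and 19.2% of all promoters, and neither was found in the Ear6 promoter. GAGGAA, the core of the PU.1 motif, and the GATA motif AGATAA were not found in any of the 4, against 28.3% and 11.2%. Over these promoters Ear10 shared 91.4% of its bases with Ear1, and its RNA was nearly absent from these libraries.

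The libraries held 89769386 to 167506186 UMIs, and 44772 of 52800 barcodes were kept, 7757 to 10280 per library. The day 7 library stood apart in that its lowest barcode held 4624 UMIs. In all, 313 barcode sequences occurred in more than 1 library, 226 of them among kept cells. Cells were assigned to types by marker genes that include no member. This gate took 12075 cells as AMs, 5764 after PBS and 625, 1612, 1408 and 2666 at days 3, 7, 14 and 28. Their median depth was 17072, 14380, 17153, 23472.5 and 17923 UMIs per cell in the same order. All 8 AM markers were detected in the AMs of every library, at 3844 to 6170 CPM (counts per 1000000 UMIs, summed over the markers and cells), and C1q macrophage markers were at 113 to 450 CPM. No cell was gated as an eosinophil, and the eosinophil markers, 1 of which (Siglecf) is also an AM marker, summed to 113 to 139 CPM in AMs.

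Ear2 was the member with the most UMIs (363949 over all kept cells), followed by Ear1 (101066) and Ear6 (11326). For Ear1 and Ear6, 88.2% and 89.2% of the UMIs fell in gated AMs, and most of the rest in cells that the gate left unassigned (8.88% and 7.24%). Ear2 was spread more widely, with 71.5% of its UMIs in AMs, 5.31% in C1q macrophages, 2.19% in dendritic cells and 18.5% in unassigned cells. After PBS, 95.9% of the Ear2 UMIs were in AMs, whereas the share was 56.1% to 73.9% after bleomycin. Unassigned cells held 1.297% of the Ear2 UMIs after PBS and 13.4% to 30.2% after bleomycin, and C1q macrophages 0.192% and 0.95% to 12.4%. The AM share was also lower after bleomycin for Ear1 (79.4% to 86.5%, against 98.5% after PBS) and Ear6 (74.2% to 86.1%, against 97.9%). AMs were also a smaller part of the kept cells after bleomycin. They were 625 of 8004, 1612 of 9493, 1408 of 7757 and 2666 of 10280 at days 3, 7, 14 and 28, against 5764 of 9238 after PBS. The part of cell numbers and of the gate in these shares was not tested. Ear10 had 4 UMIs in all kept cells, 1 after PBS and 3 at day 28, and no further value is given for it. The only other Ear gene among the features, Ear14, had 2 UMIs, both in C1q macrophages.

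Lymphoid cells, which are not known to make these enzymes, were used to measure RNA that is free in the droplets. Ear1 was at 20.9 CPM in lymphoid cells after PBS and at 3.73, 10.6, 7.62 and 19.5 CPM at days 3, 7, 14 and 28. Ear2 was at 56.6, 12.4, 47.1, 39.1 and 83.8 CPM, and Ear6 at 4.46, 0.316, 0.890, 0.455 and 1.69 CPM, in the same order. The AM levels exceeded these by 19.1- to 111-fold for Ear1, by 17.0- to 109.6-fold for Ear2 and by 13.7- to 144-fold for Ear6. All 3 were thus far above the lymphoid level in the AMs of every library, and the lymphoid level was lowest at day 3, when AMs were fewest.

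**Figure D1:**
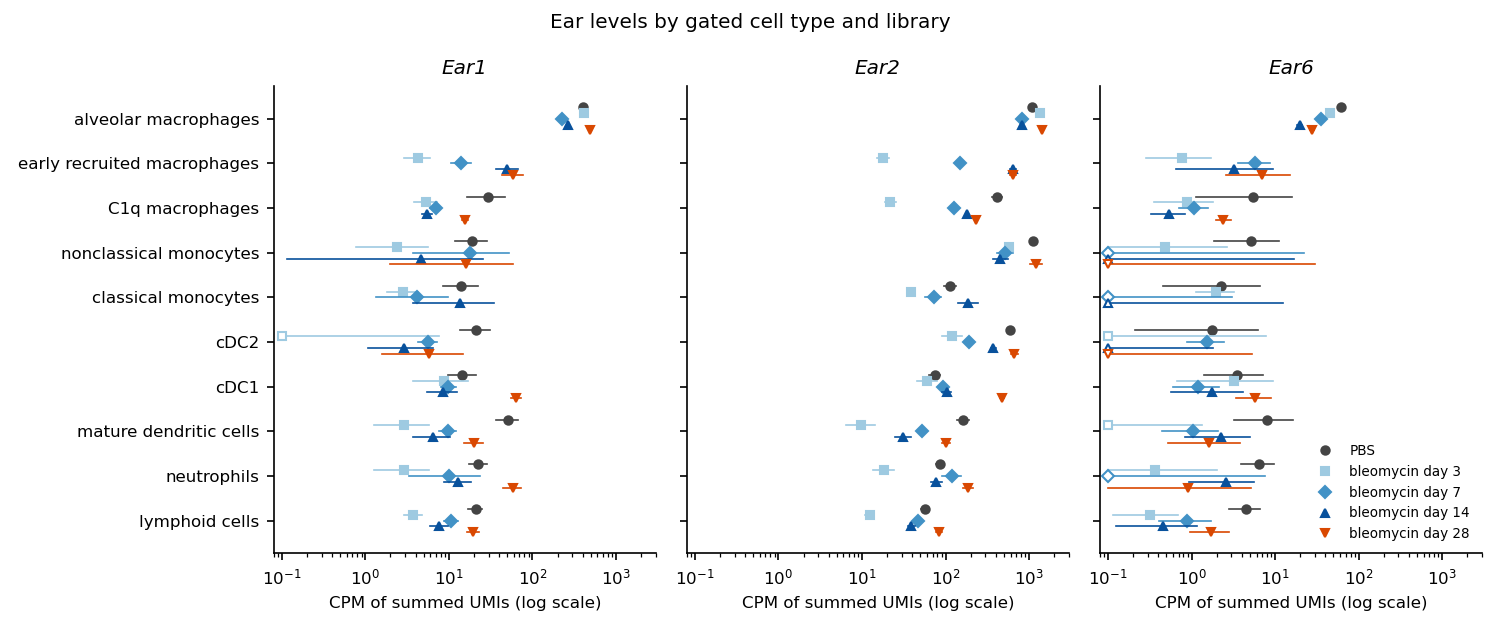
Level of Ear1, Ear2 and Ear6 (CPM of UMIs summed over a cell type, log scale) in 10 gated cell types of the 5 libraries, with exact 95% Poisson intervals, hollow symbols for a level of 0 drawn at the left edge, and types with fewer than 20 cells in a library left out. AMs are to the right of the lymphoid cells for all 3 genes, and for Ear2 the nonclassical monocytes are as well, at 454 to 1223 CPM. For Ear2, C1q macrophages, early recruited macrophages, classical monocytes, cDC1, cDC2 and neutrophils are also above the lymphoid cells in each library shown, by smaller folds at their lowest.

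By median over the libraries, Ear2 was highest outside AMs in nonclassical monocytes (578 CPM), the patrolling monocytes of the blood vessel wall. They held 1112 CPM after PBS and 578, 522, 454 and 1223 CPM at days 3, 7, 14 and 28, from 202, 291, 24, 41 and 24 cells. These levels were 11.1- to 46.6-fold above lymphoid cells, and at PBS and day 28 they were close to the AM level. After thinning every cell to 3000 UMIs, an Ear2 UMI was present in 90.3% of nonclassical monocytes after PBS and in 71.5%, 66.7% and 65.8% at days 3, 7 and 14, against 16.2%, 2.44%, 6.95% and 10.9% of lymphoid cells. Before thinning, the medians were 5332, 6540, 5638.5 and 4973 UMIs per nonclassical monocyte and 4610, 6698.5, 6590 and 4755.5 per lymphoid cell. AM markers summed to 290 CPM in nonclassical monocytes after PBS and to 40.6, 48.0, 137 and 154 CPM afterwards, against 289, 38.4, 127, 159 and 188 CPM in lymphoid cells, slightly above the lymphoid level after PBS and at day 3 and below it in the other 3 libraries.

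Among the gated types, early recruited macrophages and dendritic cells type 2 (cDC2) followed, with medians of 392 and 374 CPM and overlapping ranges. Unassigned cells whose leading scores were those of AMs and C1q macrophages held Ear2 at 466, 604 and 1029 CPM at days 7, 14 and 28 (71, 102 and 235 cells). After PBS, 43 such cells held 63.6 CPM, 1.12-fold the lymphoid level. The cDC2 held Ear2 at 593, 121.0, 189, 374 and 670 CPM after PBS and at days 3, 7, 14 and 28, from 68, 25, 755, 118 and 50 cells. Early recruited macrophages were gated by the mean score of Ly6c2, Ms4a7, Arg1, Fn1 and Thbs1. Any 2 of these could be enough, so Ly6c2 and Ms4a7 did not have to occur together. Non-cycling AMs held these markers at 193, 1045, 649, 1907 and 1488 CPM after PBS and at days 3, 7, 14 and 28. Early recruited macrophages held Ear2 at 18.0, 147, 636 and 645 CPM at days 3, 7, 14 and 28, with 513, 218, 50 and 45 cells. Among the bleomycin libraries the early recruited macrophages of day 3 were therefore near the lymphoid level (1.45-fold above it), and those of day 14 were 16.2-fold above it and higher than the nonclassical monocytes of that day. C1q macrophages were gated by markers of interstitial macrophages. They held Ear2 at 414 CPM after PBS (47 cells), 21.8 CPM at day 3 (550 cells), 128 CPM at day 7 (1516 cells), 180.2 CPM at day 14 (1398 cells) and 229.8 CPM at day 28 (1701 cells). They were lowest at day 3, 1.76-fold above lymphoid cells, and above lymphoid cells in all 5 libraries. The C1q macrophages of PBS also held cDC2 markers at 1579 CPM, against 94.6 to 343 CPM after bleomycin, and those of day 3 held classical monocyte markers at 2756 CPM, against 51.9 to 1091 CPM in the other libraries. AM markers summed to 368, 69.7, 202, 558 and 902 CPM in C1q macrophages after PBS and at days 3, 7, 14 and 28. In cDC2 they summed to 291, 89.7, 325, 295 and 245 CPM, against 289, 38.4, 127, 159 and 188 CPM in lymphoid cells. Both types were thus above lymphoid cells in each library, the cDC2 of PBS only slightly. The part that cells of these other types, AMs among them, had in these Ear2 levels was not tested.

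Within C1q macrophages, the level of Ear2 differed with the markers of fibrotic macrophages (Gpnmb, Mmp12, Mfge8, Trem2 and Spp1). Of 5212 C1q macrophages, 3595 were high in these markers, and 1602 of 1701 were at day 28. At days 7, 14 and 28 it was 178, 326 and 396 CPM in cells low in these markers, and 89.6, 154 and 224 CPM in cells high in them. At day 3 it was 21.0 and 24.2 CPM, with overlapping counting intervals (17.4 to 25.0 CPM and 18.1 to 31.9 CPM). Ear2 was thus lower in the fibrotic C1q macrophages of the 3 later libraries. Classical monocytes held Ear2 at 114, 38.7, 71.9 and 187 CPM after PBS and at days 3, 7 and 14, 1.53- to 4.77-fold above lymphoid cells. Type 1 dendritic cells and neutrophils were above lymphoid cells in 5 of 5 libraries as well, by 1.31- to 5.67-fold and 1.47- to 2.55-fold. Endothelial cells were above them in 4 of 5 and mature dendritic cells in 2 of 5. Plasmacytoid dendritic cells were not in any of 4, nor epithelial cells in any of 5. Neutrophils were shallower than lymphoid cells, with medians of 2651.5, 3347.5, 6162, 2733 and 2167 UMIs against 4610, 6698.5, 6590, 4755.5 and 3729. Endothelial medians were 1115 to 9732 UMIs. The part of depth in these Ear2 levels was not tested.

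Ear1 and Ear6 were above lymphoid cells in fewer types and libraries. In nonclassical monocytes Ear1 was at 18.8, 2.39, 18.0, 4.58 and 16.2 CPM after PBS and at days 3, 7, 14 and 28, and its counting interval was above that of lymphoid cells in 0 of 5 libraries. C1q macrophages held Ear1 at 29.0, 5.30, 6.92, 5.50 and 15.5 CPM, again with 0 of 5 above lymphoid cells, and cDC2 were above them in 0 of 5. C1q macrophages were deeper than lymphoid cells, with medians of 9347, 14483, 14607.5, 25864 and 21667 UMIs against 4610, 6698.5, 6590, 4755.5 and 3729. As deposited, Ear1 was found in 21.3%, 3.09%, 4.49%, 9.44% and 14.4% of them, against 9.81%, 1.46%, 3.93%, 3.71% and 6.62% of lymphoid cells. After thinning, the shares were 0.798% to 9.76% against 0.644% to 5.91%. The part of depth in these comparisons was not tested. Early recruited macrophages held Ear1 at 4.27, 14.0, 49.98 and 58.1 CPM at days 3, 7, 14 and 28, above lymphoid cells at 2 of 4 days. For Ear6, C1q macrophages, nonclassical monocytes and cDC2 were each above lymphoid cells in 0 of 5 libraries and early recruited macrophages in 3 of 4, where they held at most 6.97 CPM. In the remaining types, Ear1 was above lymphoid cells in neutrophils in 2 of 5 libraries (57.8 CPM at day 28) and in type 1 dendritic cells (64.3 CPM at day 28), mature dendritic cells and endothelial cells in 1 of 5 each. Ear6 was above them in type 1 dendritic cells in 2 of 5, in classical monocytes in 1 of 4 (1.98 CPM at day 3, 6.27-fold) and in neutrophils and mature dendritic cells in 1 of 5 each. In the unassigned cells between AMs and C1q macrophages, Ear1 and Ear6 were each above lymphoid cells in 3 of 4 libraries. At days 7, 14 and 28 they held Ear1 at 92.9, 58.6 and 165 CPM and Ear6 at 9.81, 4.24 and 8.05 CPM. By median level over the libraries, AMs thus led for all 3 genes. For Ear2 the ranges of AMs and nonclassical monocytes overlapped, and for Ear1 and Ear6 the AM range lay above that of each other named type.

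The balance of the near-identical pair Ear1 and Ear2 differed between types accordingly. Ear1 made up 26.9% of the Ear1 and Ear2 UMIs in AMs after PBS, and 21.6% to 25.5% after bleomycin. In lymphoid cells the share was 27.0%, 23.1%, 18.4%, 16.3% and 18.9% after PBS and at days 3, 7, 14 and 28. The counting intervals of lymphoid cells and AMs overlapped after PBS and at days 3 and 7, and at days 14 and 28 lymphoid cells (12.9% to 20.2% and 16.4% to 21.6%) were below AMs (24.0% to 24.8% and 25.3% to 25.8%). It was 0.412% to 3.33% in nonclassical monocytes, 0% to 3.42% in cDC2, 2.96% to 19.5% in C1q macrophages and 7.29% to 19.2% in early recruited macrophages. The highest share in both of these macrophage types was that of day 3, when their Ear2 level was nearest to the lymphoid level. The ratio of the pair was thus not fixed across types, despite the reads they can share.

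**Figure D2:**
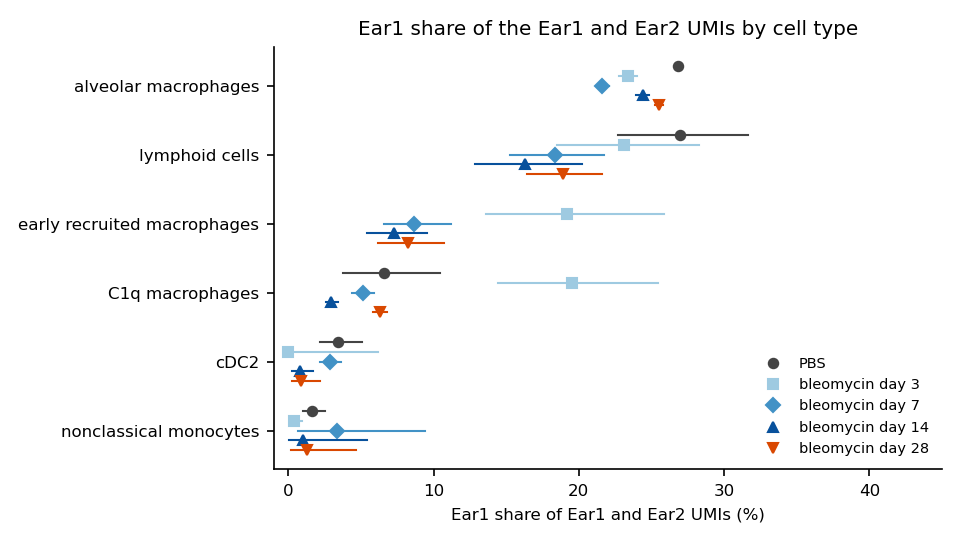
Share of the Ear1 and Ear2 UMIs that were assigned to Ear1 (%), by gated cell type and library, with exact 95% binomial intervals. AMs sit at 21.6% to 26.9%, nonclassical monocytes at 0.412% to 3.33%, and lymphoid cells overlap the AMs after PBS and at days 3 and 7 but lie below them at days 14 and 28.

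In the AMs, Ear1 and Ear2 were lower at days 7 and 14 than after PBS and highest at day 28, whereas Ear6 was below PBS in each bleomycin library. Ear1 was at 399.9 CPM after PBS (95% interval 396 to 404), and at 415 CPM (402 to 428), 228 CPM (223 to 233), 268 CPM (263 to 273) and 488 CPM (482 to 494) at days 3, 7, 14 and 28. Ear2 was at 1089 CPM after PBS (1083 to 1096), and at 1360 CPM (1337 to 1383), 827 CPM (817 to 837), 830.2 CPM (821 to 840) and 1423 CPM (1413 to 1433). The counting intervals of PBS were met by no bleomycin library for Ear2, and for Ear1 by day 3 alone. Relative to PBS, the log2 ratio was 0.05, -0.81, -0.58 and 0.29 for Ear1 and 0.32, -0.40, -0.39 and 0.39 for Ear2 at days 3, 7, 14 and 28.

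Ear6 was at 61.0 CPM in AMs after PBS (59.5 to 62.5), and at 45.6 CPM (41.4 to 49.96), 35.1 CPM (33.1 to 37.3), 19.8 CPM (18.4 to 21.3) and 27.5 CPM (26.1 to 28.9) at days 3, 7, 14 and 28. All 4 bleomycin libraries were below PBS, and their counting intervals did not meet that of PBS. The log2 ratios to PBS were -0.42, -0.80, -1.62 and -1.15, or 0.747, 0.576, 0.324 and 0.450 of the PBS level. Ear6 was at least 2-fold lower at days 14 and 28, where 3.00% and 3.48% of all genes at 20 CPM or more were (2.85% at day 3 and 1.51% at day 7). At least 2-fold higher were 4.46%, 1.88%, 3.02% and 3.18% of genes at days 3, 7, 14 and 28, and no member. At day 14, 0.824% of the 6190 genes had a lower ratio than Ear6, and at day 28 it was 2.63% of 6229. Neither Ear1 nor Ear2 differed by 2-fold at any day. With 1 library for each day, the mice, the library and the day cannot be told apart.

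The AM population itself differed between the libraries. Cycling AMs numbered 953, 20, 277, 175 and 259, and AMs high in the fibrotic markers numbered 85, 83, 202, 323 and 1210. Of all AMs, 2016 lay within 0.05 of the limit of the fibrotic score, so many cells lie near it. Without cycling cells, the log2 ratios of Ear6 to PBS were -0.52, -0.81, -1.61 and -1.22. Without the fibrotic cells as well, they were -0.68, -0.76, -1.62 and -1.70. The lower Ear6 of the bleomycin libraries was therefore about as large in AMs low in fibrotic markers as in all AMs at days 7 and 14, and larger at days 3 and 28.

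The members differed between non-cycling AMs high and low in fibrotic markers (69, 82, 173, 284 and 1090 cells against 4742, 523, 1162, 949 and 1317 in the order of the libraries). Ear1 was at 127, 245, 237, 276 and 439 CPM in the cells high in these markers, and at 429.6, 449.7, 231, 268 and 572 CPM in those low in them. Ear2 was at 428, 791, 816, 829 and 1400.2 CPM against 1184, 1509.7, 882, 857 and 1524 CPM. Ear2 was lower in the fibrotic AMs of 5 of 5 libraries, by most after PBS, and Ear1 was lower after PBS and at days 3 and 28 and slightly higher at days 7 and 14. Ear6 went the other way, with 267, 73.3, 42.5, 24.9 and 35.4 CPM in the fibrotic AMs and 60.2, 37.6, 35.4, 19.6 and 18.5 CPM in the others, higher in 5 of 5 libraries. At day 7 the counting intervals overlapped (36.3 to 49.5 against 32.9 to 38.2 CPM), and after thinning to 3000 UMIs the share of cells with Ear6 was lower there in the fibrotic AMs (5.20% against 9.38%), whereas in the PBS, day 3, day 14 and day 28 libraries it was higher, with 42.1%, 22.5%, 6.79% and 7.00% of fibrotic AMs and 11.4%, 8.98%, 4.71% and 4.35% of the others. The difference was largest after PBS, where the 69 fibrotic AMs held Ear6 at 241 to 294 CPM by the counting interval. These PBS cells held AM markers at 6665 CPM, against 6421 CPM in the others, C1q markers at 122 against 117 CPM, and classical monocyte markers at 11.2 against 23.3 CPM, and their median depth was 23633 against 16337 UMIs.

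**Figure D3:**
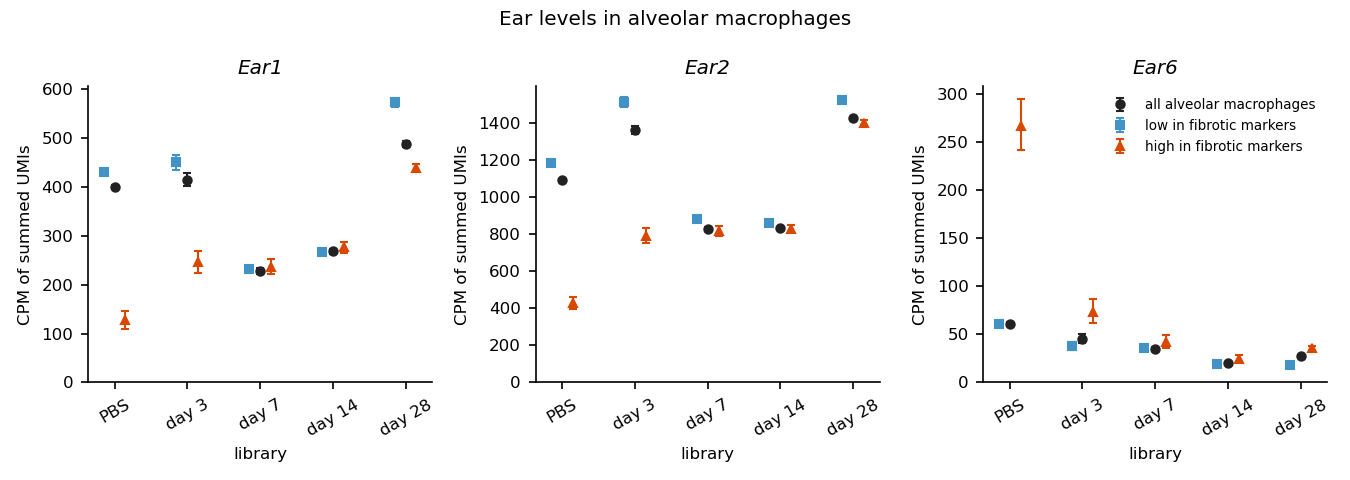
Level of Ear1, Ear2 and Ear6 (CPM of summed UMIs, axis from 0) in all AMs and in non-cycling AMs low or high in fibrotic markers, by library, with exact 95% Poisson intervals. Ear1 and Ear2 are lowest in the 69 fibrotic AMs of PBS (127 and 428 CPM), where Ear6 is highest (267 CPM).

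The share of AMs with a UMI was compared after thinning to 3000 UMIs per cell, which left out 204, 15, 0, 20 and 12 AMs with fewer. Ear2 was found in 87.3% of AMs after PBS and in 91.3%, 82.9%, 85.2% and 95.4% at days 3, 7, 14 and 28, and Ear1 in 57.6%, 53.9%, 42.0%, 43.7% and 63.2%. Ear6 was found in 11.6%, 10.7%, 8.87%, 5.26% and 5.43% of AMs. In lymphoid cells the shares were 2.44% to 18.9% for Ear2, 0.644% to 5.91% for Ear1 and 0.138% to 1.72% for Ear6, with 3729 to 6698.5 UMIs per cell at the median before thinning. In the cells as deposited, Ear2 was found in 97.6% to 99.7% of AMs, Ear1 in 77.5% to 90.02% and Ear6 in 21.7% to 33.3%. Ear2 was thus found in nearly every AM, and Ear6 in a minority, in each library.

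Within a library, AMs varied more in the members than counting alone would give. At 3000 UMIs per non-cycling AM, the variance over the mean was 2.18 to 3.61 for Ear1, 2.04 to 3.56 for Ear2 and 1.31 to 1.83 for Ear6, where counting alone gives about 1. Ear1 and Ear2 were correlated across cells of a library, with Pearson's r of 0.39, 0.55, 0.42, 0.40 and 0.34 over 4630, 592, 1335, 1214 and 2395 cells that share a library and a fixed depth. The pair shares reads, and the part of these in the correlation was not tested. Between Ear6 and Ear1, r was -0.13 after PBS and -0.06 to 0.04 afterwards, and between Ear6 and Ear2 it was -0.18 after PBS and 0.00 to 0.07 afterwards. In the PBS library, the 1905 AMs with no Ear1 UMI held 0.283 Ear6 UMIs on average, against 0.0961 in the 2725 with Ear1, and the 532 AMs with no Ear2 UMI held 0.485 Ear6 UMIs on average, against 0.133 in the 4098 with Ear2.

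Non-cycling AMs were also classed by Ear6 after thinning to the fixed depth given above. Those with an Ear6 UMI left (561, 64, 113, 63 and 112 cells) were set beside those without for all 5121 genes at 20 CPM or more. After thinning, 4.68% to 12.1% of these cells kept an Ear6 UMI, whereas as deposited Ear6 was found in 21.7% to 33.3% of all AMs. The class without therefore also held cells with an Ear6 UMI as deposited. Cxcr1, a chemokine receptor gene, was the only gene at least 1.5-fold higher in all 5 libraries, with 103 against 45.5 CPM after PBS and 23.9 against 14.1, 53.2 against 29.8, 45.2 against 20.6 and 92.7 against 34.2 CPM at days 3, 7, 14 and 28. Plpp3, a lipid phosphate phosphatase gene (1.47- to 2.87-fold), Ctsk, which encodes the protease cathepsin K (1.31- to 2.34-fold), and the fibrotic marker Gpnmb (1.22- to 1.60-fold) were also higher in all 5. No gene was 1.5-fold lower in all 5, and the lectin gene Siglece, at 0.550 to 0.828 of the level, came nearest. These genes were picked after their values were seen, the classes were cut by the thinned Ear6 count itself, and no test was made. Cells with Ear6 after thinning were also deeper in 4 of 5 libraries, with medians of 16301 to 23489 UMIs against 14096 to 22733.

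Over 61 combinations of cell type and library with at least 50 cells, the genes whose pattern was most like the mean of the 4 members on the log2(CPM + 10) scale were Il18 (r = 0.88), which encodes an inflammasome cytokine, Cidec (r = 0.88), a lipid droplet gene and a marker of the AM gate, and Trim29, C530008M17Rik and Kctd12b (r = 0.87 each), among 11697 genes. Ear1 alone was most like Cpne5 (0.92), Ear2 most like Sh2d1b1 (0.85) and Mrc1 (0.84), and Ear6 most like Cidec (0.94). The points share libraries and the AMs lead all of these patterns. On the log2(CPM + 1) scale 3 of the 5 genes remained among the first 5, and over the 17 points of macrophages and monocytes alone 0 of 5 did.

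Of the other RNase A superfamily genes and the ribonuclease inhibitor Rnh1 (14 listed), Ang, Rnase4, Rnase6 and Rnh1 reached 20 CPM in some type. In AMs, Rnase4, a broadly expressed secreted ribonuclease, was at 29.0, 53.4, 43.2, 55.7 and 59.3 CPM after PBS and at days 3, 7, 14 and 28, and Rnase6, an antimicrobial ribonuclease of myeloid cells, at 10.7, 26.3, 24.3, 21.2 and 29.5 CPM. Both were higher in every bleomycin library than after PBS, unlike Ear6. Rnh1, whose protein binds and blocks RNase A enzymes, was at 363, 416, 332, 296 and 304 CPM, and Ang, which encodes angiogenin, at 6.08, 11.9, 8.66, 10.0 and 11.0 CPM. Of the 3 genes of this list at 20 CPM or more, Rnase6 was the one at least 2-fold higher at days 3 and 7, and 2 were at day 28.

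Genes on which AM identity depends were counted in the same way. Of the 15 genes of the GM-CSF, TGF-β and PPARG axis, 0 were at least 2-fold lower at days 3, 7 and 14 and 1 was at day 28, and 1 was at least 2-fold higher, at day 14, with median log2 ratios of 0.04, -0.15, -0.0018 and -0.23 beside -0.12, -0.09, -0.04 and -0.03 over all genes. Of 20 further AM genes, 2, 0, 3 and 3 were at least 2-fold lower, beside 2.85%, 1.51%, 3.00% and 3.48% of all genes, 1 was at least 2-fold higher, at day 3, and the median was -0.26, -0.22, -0.15 and 0.11.

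The members had not been chosen by the cell cycle, so cycling AMs, with at least 3 of 10 cycling markers, were tested against the other AMs within each library (953 against 4811 cells after PBS, and 20 against 605, 277 against 1335, 175 against 1233 and 259 against 2407 at days 3, 7, 14 and 28). Ear2 was at 793 against 1170.4 CPM after PBS, 1088 against 1368 CPM at day 3, 664 against 871 CPM at day 7, 734 against 849.8 CPM at day 14 and 1196 against 1458 CPM at day 28, lower in the cycling cells of 5 of 5 libraries. By edgeR's quasi-likelihood test with the library as a block, Ear2 fell by 0.45 on the log2 scale (SE 0.06, Benjamini–Hochberg adjusted p = 2.96e-05, n = 5 libraries). Ear6 was at 49.98 against 64.0, 73.4 against 44.6, 29.8 against 36.6, 13.7 against 21.0 and 27.1 against 27.5 CPM, lower in 4 of 5, and fell by 0.34 (SE 0.09, edgeR adjusted p = 0.0105). Ear1 was at 312 against 424, 577 against 409.5, 213 against 232, 258 against 269.8 and 403 against 501 CPM, also lower in 4 of 5, and fell by 0.24 (SE 0.08, edgeR adjusted p = 0.0358).

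All 3 members tested thus passed in the lower direction, beside 37.4% of the 11475 genes in either direction and 19.1% in the lower (18.3% in the higher), and Ear10 had too few counts to be tested. Day 3, where Ear1 and Ear6 were higher, had 20 cycling AMs. Ear1 no longer passed without the PBS, day 7 or day 28 library (adjusted p = 0.200, 0.0975 and 0.144), and Ear6 did not without PBS (adjusted p = 0.0874), by edgeR. By DESeq2, neither Ear1 (adjusted p = 0.0791) nor Ear6 (adjusted p = 0.0579) passed. Without day 3 all 3 passed, with Ear1 at -0.32, Ear2 at -0.44 and Ear6 at -0.39 (edgeR adjusted p = 0.00172, 0.000101 and 0.00188). Except at day 3, cycling AMs held more UMIs in all, with means per cell of 23579 against 17029 after PBS and 15673 against 15846, 23163 against 17677, 35402 against 24612 and 28316 against 19688 at days 3, 7, 14 and 28. Cycling markers were counted in the cells as deposited, without thinning, and the part of depth in this class was not tested. The number of Ear2 UMIs per cell was 18.7 against 19.9, 17.1 against 21.7, 15.4 against 15.4, 26.0 against 20.9 and 33.9 against 28.7. The Ear2 share of the RNA was therefore lower in cycling AMs of each library, whereas the Ear2 UMIs per cell were lower after PBS and at day 3, level at day 7 and higher at days 14 and 28. Ear1 UMIs per cell were higher in the cycling AMs of 5 of 5 libraries, at 7.35 against 7.22, 9.05 against 6.49, 4.92 against 4.10, 9.13 against 6.64 and 11.4 against 9.86. Ear6 UMIs per cell were higher in 4 of 5, at 1.18 against 1.09, 1.15 against 0.707, 0.690 against 0.647, 0.486 against 0.517 and 0.768 against 0.542. The lower levels of the tests are thus levels relative to a cell's other RNA, not UMIs per cell. Unlike the CPM values, the tests also used TMM scaling.

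Other AM genes were lower in cycling AMs too. Of the GM-CSF, TGF-β and PPARG axis, 13 of 15 fell and 0 rose (median -0.29, beside -0.03 over all genes), with the largest decreases in the transcription factor gene Cebpa (-0.49, SE 0.07, edgeR adjusted p = 4.48e-05) and the GM-CSF receptor gene Csf2rb2 (-0.45, adjusted p = 7.79e-05). Of 20 AM genes outside the gate, 15 fell and 1 rose (median -0.30). Fabp5 and Fabp4, fatty acid binding protein genes, fell by 0.46 each, and the protease inhibitor gene Serpinb1a rose by 0.26 (edgeR adjusted p = 0.0122). Of the RNase list, 5 of 14 could be tested and 3 fell, among them Rnase4 (-0.37, edgeR adjusted p = 0.00174) and Rnase6 (-0.27, edgeR adjusted p = 0.00904). None of the 6 eosinophil genes had enough counts to be tested.

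To ask whether AMs that carry the progenitor reporter differ in the members, reporter-high AMs (at least 3 RFP UMIs in 3000, the added RFP feature being taken as tdT) were tested against reporter-low AMs (0 RFP UMIs) without cycling cells. This was possible after PBS (61 against 3317 cells), at day 14 (152 against 655) and at day 28 (297 against 1588), whereas days 3 and 7 held 9 and 19 reporter-high AMs. The share of AMs with at least 3 RFP UMIs was 1.32%, 12.5% and 12.4%, and that of lymphoid cells 1.61%, 7.49% and 1.33%, so the PBS class was at the lymphoid level. Of classical monocytes, 51.2% reached this limit after PBS (127 cells) and 55.5% at day 3 (632 cells). At days 7, 14 and 28 their share was 2.96%, 6.90% and 0%, of 135, 29 and 7 cells. A low RFP count therefore does not show that an AM was of resident origin. Reporter-high AMs of PBS also held neutrophil markers at 459 against 51.7 CPM (6 of 6 higher) and classical monocyte markers at 160.2 against 17.4 CPM. At days 14 and 28 the reporter-high AMs held the fibrotic markers at 15859 against 6802 and 15801 against 7982 CPM. The AM markers of the gate were lower in the reporter-high AMs, at 6199 against 6417 CPM after PBS (3 of 8 higher). At day 14 they were at 3627 against 4079 CPM (1 of 8 higher), and at day 28 at 3206 against 4059 CPM (0 of 8 higher).

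Ear1 was at 289 against 448 CPM after PBS, 196 against 286 CPM at day 14 and 435 against 525 CPM at day 28, lower in the reporter-high AMs of 3 of 3 libraries. The difference was -0.45 on the log2 scale (SE 0.09) and did not pass the threshold (edgeR adjusted p = 0.0573, n = 3 libraries). Without the PBS library it did, at -0.37 (edgeR adjusted p = 0.000287), on 2 libraries and 1 residual degree of freedom, and over 10 alternatives the adjusted p was 5.11e-08 to 0.99998, passing in 6. Ear2 was at 879.7 against 1221, 777 against 852 and 1528 against 1450.3 CPM (-0.15, SE 0.10, edgeR adjusted p = 0.745). Ear6 was at 185 against 58.0, 10.4 against 19.2 and 32.7 against 26.9 CPM (0.61, SE 0.33, edgeR adjusted p = 0.638), higher in PBS and day 28 and lower at day 14. In all, 0 of 3 members passed, beside 0.714% of the 11058 genes (79, of which 44 rose and 35 fell), and 1055 genes had an unadjusted p under 0.05. None of the 15 genes of the GM-CSF, TGF-β and PPARG axis, the 20 AM genes or the 5 tested genes of the RNase list passed by edgeR.

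**Figure D4:**
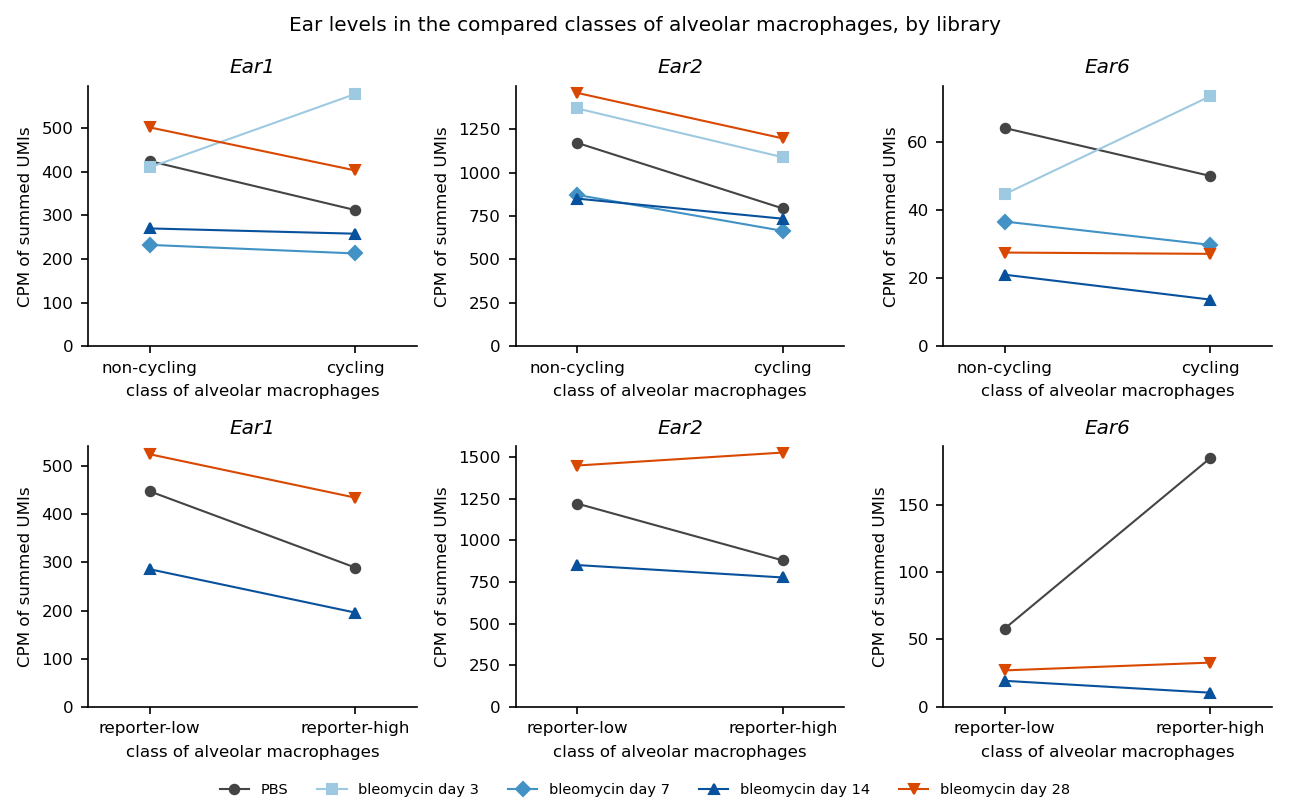
Level of Ear1, Ear2 and Ear6 (CPM of summed UMIs, axes from 0) in non-cycling and cycling AMs (top, 5 libraries) and in reporter-low and reporter-high non-cycling AMs (bottom, 3 libraries), with a line joining the classes of 1 library. Ear2 is lower in cycling AMs of all 5 libraries, Ear1 is lower in reporter-high AMs of all 3, and Ear6 reaches 185 CPM in the 61 reporter-high AMs of PBS.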

How the data were processed

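The deposited values are unnormalized UMI counts for each feature in a barcode, which the authors made with Cell Ranger 6.0.0 on mm10 and had not yet filtered for cell quality. Kept cells had a mitochondrial share under 15%, between 800 and 60000 UMIs, and between 300 and 8000 genes. Doublets were kept, and removed in an alternative (Scrublet in scanpy 1.11.5). The members and gene lists were chosen with earlier results of these data known. A cell took the type with the highest mean of scaled marker levels, if the score was at least 0.25, led the next by 0.1 and rested on at least 2 markers. Fibrotic AMs had a score of at least 0.4. Counts were summed per type and library and scaled to CPM, with exact 95% Poisson or Clopper–Pearson intervals. Intervals cover counting error only. Types with fewer than 20 cells in a library are not shown.

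Classes of AMs were tested on summed counts with edgeR 4.0.16 in R 4.3.3 (quasi-likelihood test, TMM normalization, filterByExpr, library as a block), with p-values adjusted by Benjamini–Hochberg over all genes at a threshold of 0.05. The test was checked on simulated data that had a common dispersion and the same class effect in every library. Class effects that differ between libraries were not covered by this check. Named genes were the members, other Ear and RNase genes at 20 CPM or more in a type of at least 50 cells, the 5 most like the members, and the 2 largest in each direction of each list past the threshold. Genes set beside Ear6 were chosen after their values were seen. Alternatives were DESeq2 1.42.0, no filter on counts, no block, 1 library left out, other reporter and cycling limits, a mitochondrial limit of 10%, gate margins of 0.2 and none, the mean of each cell's CPM, and the lowest day 7 depth as a floor. Gene positions and transcripts were from GENCODE vM21 (GRCm38), upstream sequences from RefSeq (GRCm38.p6), in which all 4 members were matched. Sums and intervals were computed with scipy 1.17.1 and pandas 2.3.3 (numpy 2.4.6) under Python 3.11.15, and plots drawn with matplotlib 3.10.9.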

Additional observations from a re-analysis of the deposited data

Results flagged for a closer look

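In cycling against non-cycling AMs, the day 3 library, with 20 cycling cells, went against other libraries. The log2 ratio of Ear1 was 0.50 at day 3, against -0.44 after PBS, -0.13 at day 7 and -0.32 at day 28. That of Ear6 was 0.72 at day 3, against -0.36 after PBS, -0.30 at day 7 and -0.62 at day 14. In reporter-high against reporter-low AMs, the log2 ratio of Ear2 was 0.076 at day 28, against -0.47 after PBS and -0.13 at day 14. That of Ear6 was 1.67 after PBS and 0.28 at day 28, against -0.89 at day 14. Each value rests on 1 library, and these differences between libraries were not tested.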

How the results depend on the processing

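Each library is the only 1 of its day, so counting intervals leave out the spread between mice, and Ear1, Ear2 and Ear10 counts depend on how shared reads were assigned. No paired analysis was possible between days because their groups share fewer than 2 replicate numbers, whereas classes of AMs were compared within libraries, with and without the library as a block. All 72 log2 ratios of AMs to PBS kept their direction, and the following moved beyond counting error. With a gate margin of 0.2, Ear1 was 0.14, -0.66, -0.43 and 0.41 at days 3, 7, 14 and 28, Ear2 0.39, -0.36 and -0.36 at days 3, 7 and 14, and Ear6 -0.63, -1.41 and -1.07 at days 7, 14 and 28. With no margin, an alternative chosen after seeing the data, Ear1 was -0.88, -0.66 and 0.23 at days 7, 14 and 28, Ear2 -0.43 at day 7, and Ear6 -1.75 and -1.25 at days 14 and 28. With the mean of each cell's CPM, Ear1 was 0.19, -0.75 and -0.68 at days 3, 7 and 14, Ear2 0.37, -0.33, -0.51 and 0.32 at days 3, 7, 14 and 28, and Ear6 -0.56 and -1.38 at days 7 and 14. Under 10% mitochondrial UMIs, Ear1 was -0.87 at day 7 and Ear2 0.29, -0.46, -0.42 and 0.37, and with doublets removed Ear2 was -0.37 at day 7 and 0.40 at day 28.

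Cycling AMs gave 4297 genes past the threshold, 3250 to 4594 with 1 library left out, and 903 with no library block, where 828 rose and 75 fell in place of 2100 and 2197. Ear2 passed in 9 of 10 alternatives (not with no block, adjusted p = 0.279), Ear6 in 7 of 10 and Ear1 in 5 of 10, all lower. By DESeq2, the adjusted p was 0.0791 for Ear1 and 0.0579 for Ear6, and with no block, by edgeR, 0.837 and 0.828. For the reporter, 79 genes passed, against 517 with no filter on counts, 0 with no block (157 at an unadjusted p under 0.05), 294 with doublets removed, 25 at 1 RFP UMI, 613 at 5, 130 with RFP as deposited, and 12 to 654 with 1 library left out (654 without PBS, 12 without day 14 and 13 without day 28). Ear1 passed in 6 of 10 and was lower in each, with an adjusted p of 0.00327 by DESeq2. Ear6 passed in 1 of 10, with no filter on counts (edgeR adjusted p = 3.33e-06). Ear2 turned to 0.012 at 5 RFP UMIs (edgeR adjusted p = 0.983), and Ear6 to -0.047 without PBS (edgeR adjusted p = 0.949, with 0.98 as its highest when 1 library was left out). The cause was not tested.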
